A study of Mus musculus with 9 samples.

Results

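H19, Meg3, Dlk1, Peg3, Plagl1, Cdkn1c, Mest, Grb10, Igf2r and Ndn are imprinted genes that act on growth. They were chosen as a list of symbols, with earlier results of these data known, and all 10 were found among the 26214 genes of the deposited table of normalized counts. The RNA came from male C57BL/6J mice aged 8 to 12 weeks, 1 day after an injection into the quadriceps. Adipose stromal cells (ASCs) of the subcutaneous adipose tissue and fibro-adipogenic progenitors (FAPs) of the quadriceps were taken from mice injected with NaCl, in 3 and 2 libraries. FAPs of mice injected with 50% glycerol, which destroys myofibers, gave 3 libraries and are called injured FAPs here. For each cell type the paper describes triplicates from pooled cells of 3 animals. Whether each library had its own pool is not stated. If libraries shared a pool, the SDs, standard errors and p-values below do not cover variation between animals. The cells of these libraries were depleted of CD45+ and CD31+ cells and then enriched for Sca-1 with magnetic beads. CD31+CD45+ cells of glycerol-injected muscle gave 1 library, which has no replicate and enters no test.

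An imprinted gene is expressed mainly from the copy inherited from a single parent, a state set by DNA methylation in the germ line and kept through cell division. In mice the expressed copy is maternal for H19, Meg3, Cdkn1c, Igf2r and, in most tissues, Grb10, and paternal for Dlk1, Peg3, Plagl1, Mest and Ndn. Many imprinted genes are abundant in the fetus, decline after birth and persist in adult stem and progenitor cells, where several of them restrain proliferation or differentiation. In the adipose lineage DLK1 is known as an inhibitor of adipocyte differentiation, and in muscle PEG3 (also called PW1) is known in satellite cells and in interstitial progenitors. C57BL/6J mice are inbred, so the reads cannot be assigned to the parental copies, and each value is a total over both copies.

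The reads on genes numbered 27481573, 27349184 and 27402102 in the ASC libraries, 24052508 and 24164447 in FAPs, 26968235, 26698572 and 27028114 in injured FAPs and 13091077 in the CD31+CD45+ library. A value is a normalized read count, that is, whole reads divided by a size factor of the library, and 3 reads correspond to a value of 2.29 to 4.71. All 10 genes had a mean of at least 10 over the 8 libraries of ASCs, FAPs and injured FAPs, and the lowest value of any of them in these libraries was 110.5, of Dlk1. Differences were tested with limma on log2(value + 1), with Benjamini-Hochberg adjustment over 13601 genes. A gene is called higher or lower here when its adjusted p was under 0.05 and its log2 fold change was beyond 0.58. The 3 comparisons share groups, so their results are not independent of each other. In these bulk libraries, fewer cells that express a gene and less RNA of it per cell cannot be told apart.

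Cell type markers were read in every library. All 6 stromal markers examined (Pdgfra, Ly6a, Cd34, Dcn, Col1a1 and Thy1) were above 3 reads in each of the 9 libraries. Their summed value was 2039350, 1604460 and 1928910 in ASCs, 1041340 and 1194860 in FAPs, 433185, 450226 and 401696 in injured FAPs and 58411 in CD31+CD45+ cells. Col1a1 was the most abundant marker in each library, and single markers differed from the sum. Pdgfra had the opposite order, with 10837, 15083 and 13043 in ASCs, 17754 and 17756 in FAPs and 23649, 25268 and 23236 in injured FAPs. Thy1 was at 15999, 14381 and 17583, 8532 and 9472 and 9973, 9284 and 8589.7 in the same groups. Ly6a, which encodes the Sca-1 of the enrichment, was at 17672 in CD31+CD45+ cells against 46513, 49855 and 36777 in ASCs, 16542 and 10823 in FAPs and 24309, 21308 and 24855 in injured FAPs. Cd34 was at 17085 there, against 55027, 42885 and 54644, 32892 and 30696 and 11933, 10736 and 11553. The CD31+CD45+ library held both endothelial and leukocyte markers, with 98652 for Cdh5 and 797 for Ptprc, and also the pericyte marker Rgs5 at 40800.3.

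In ASCs against FAPs, 5 of the 10 genes were called, 1 higher and 4 lower, beside 47.2% of all tested genes (23.4% higher and 23.8% lower). After glycerol, in injured FAPs against FAPs, 6 of the 10 were called and all 6 were lower, beside 52.6% of all tested genes (24.9% higher and 27.7% lower). In injured FAPs against ASCs, 7 of the 10 were called, 2 higher and 5 lower, beside 50.8% of all tested genes (25.0% higher and 25.8% lower). The counts called are thus near the share of all genes, and after glycerol the called genes were mostly lower. With libraries scaled to total reads, the counts were 1 higher and 5 lower, 0 and 5, and 3 and 4 in the 3 comparisons. Their median log2 fold change was -0.80 in injured FAPs against FAPs, where the median over all tested genes was -0.05. It was -0.74 in injured FAPs against ASCs, where that of all genes was 0.02, and -0.02 in ASCs against FAPs, where that of all genes was 0.005. The values of the compared groups did not overlap for 8, 9 and 10 of the genes in the 3 comparisons in this order, against 72.2%, 84.0% and 71.8% of all tested genes.

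How the libraries are scaled shifts all genes together. With libraries scaled to total reads, an alternative chosen after seeing the data, the median of all genes moved by -0.56 in ASCs against FAPs, by 0.13 in injured FAPs against FAPs and by 0.69 in injured FAPs against ASCs. A common 75th percentile moved it by -0.21, -0.09 and 0.11. None of the 6 genes lower in injured FAPs than in FAPs changed direction under these scalings or under quantile normalization, and 5 of the 6 stayed past the threshold in all of them, the exception being Ndn with total reads at -0.55.

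**Figure D1:**
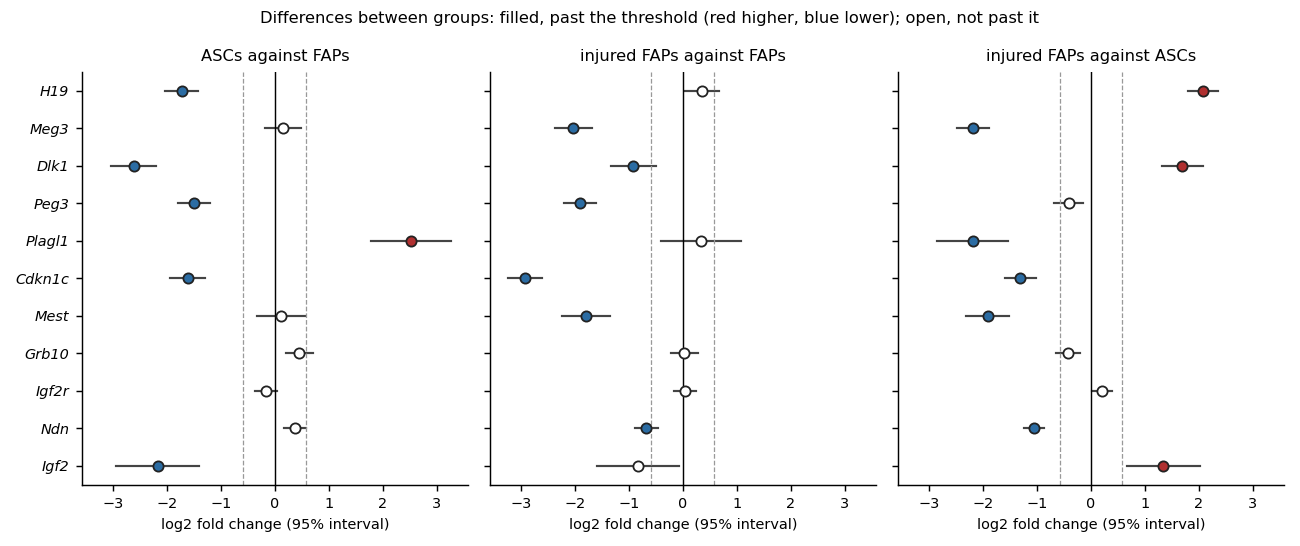
Log2 fold change (horizontal axis) of the 10 genes and of Igf2 in each of the 3 comparisons, with the 95% interval of the limma fit as a line. Filled points are called (red higher, blue lower), open points are not, and the dashed lines mark 0.58 in both directions. In injured FAPs against FAPs all 6 filled points lie to the left, from -0.68 for Ndn to -2.93 for Cdkn1c.

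Meg3, a long noncoding RNA (ENSMUSG00000021268.17, chromosome 12, 109541001 to 109571726, plus strand, GRCm38), lies 77.7 kb from Dlk1 on the same strand. Its promoter is shown together with those of Mest and Peg3. Of the 5 genes that fell in injured FAPs against FAPs and had a window at hand, these 3 fell most, and the windows of Dlk1 and Ndn are not shown. Each is 300 bases of RefSeq GRCm38.p6 from 250 bases before to 50 after an annotated start, written along the strand of the gene. Capitals mark matches on either strand to 4 motifs. The cyclic AMP response element was searched as TGACGTCA. The hexamer of the imprint maintenance factor ZFP57 was searched as TGCCGC. The GC box was searched as GGGCGG. The TATA box was searched as TATAAA.
Meg3 promoter, chr12:109540746-109541045, plus strand: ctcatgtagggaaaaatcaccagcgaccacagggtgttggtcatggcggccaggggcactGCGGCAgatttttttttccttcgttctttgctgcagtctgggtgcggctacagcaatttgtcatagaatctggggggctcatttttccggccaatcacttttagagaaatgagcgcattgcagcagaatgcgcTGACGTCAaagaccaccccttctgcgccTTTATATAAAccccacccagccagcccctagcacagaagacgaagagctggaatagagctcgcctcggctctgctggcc
Mest promoter, chr6:30737800-30738099, plus strand: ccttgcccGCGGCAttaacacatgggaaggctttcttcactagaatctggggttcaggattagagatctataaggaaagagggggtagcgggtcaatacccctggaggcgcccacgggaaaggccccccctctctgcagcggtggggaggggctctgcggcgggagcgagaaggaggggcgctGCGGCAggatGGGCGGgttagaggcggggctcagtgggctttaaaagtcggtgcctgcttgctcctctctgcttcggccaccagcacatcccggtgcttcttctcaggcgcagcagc
Peg3 promoter, chr7:6730370-6730669, minus strand: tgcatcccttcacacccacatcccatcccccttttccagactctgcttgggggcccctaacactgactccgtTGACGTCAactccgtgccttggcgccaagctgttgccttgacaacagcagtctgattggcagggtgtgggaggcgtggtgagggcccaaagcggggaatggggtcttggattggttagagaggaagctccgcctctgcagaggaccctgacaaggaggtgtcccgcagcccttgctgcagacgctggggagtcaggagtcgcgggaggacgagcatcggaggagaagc

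The cyclic AMP response element was present in full in the Meg3 window, 57 bases before the start, and in the Peg3 window, 178 bases before it. Of 32851 windows of this length, 1.79% held it, and it was added to the search after the sequences had been seen. Among the 12 windows at hand for 8 of the 10 genes, no other held it. The ZFP57 hexamer was in 5 of these 12 windows, those of Mest (both starts that lie 3 bases apart), Plagl1, Grb10 and Meg3, beside 11.6% of all windows. The GC box was in 7 of the 12 and in 35.7% of all. Both counts include the overlapping windows of Mest, which share nearly all their bases. Both motifs contain the bases CG, and the shares over all windows are not matched for CG content. The TATA box was in the Meg3 window alone and in 13.6% of all, and its matches on both strands overlap there, so that the capitals form a single run. H19 and Cdkn1c had no window. The windows of Grb10 with its most distal start, Igf2r and Plagl1 held 45, 34 and 26 CpG dinucleotides, those of Mest, Meg3 and Peg3 shown above 17, 13 and 13, and the median window 7. These matches are a description of letters, and binding was not measured.

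Normalized counts of Meg3 were 14890.1, 11884 and 13450.1 in ASCs, 10059 and 14309 in FAPs and 3036, 2995 and 2798 in injured FAPs. All 3 injured libraries lay below every other library of ASCs and FAPs, and the values of ASCs and FAPs overlapped. The means were 13408 ± 1503 (SD, n = 3), 12184 ± 3006 (SD, n = 2) and 2943 ± 128 (SD, n = 3) for ASCs, FAPs and injured FAPs in this order. Meg3 fell by 2.03 on the log2 scale in injured FAPs against FAPs (standard error 0.15, adjusted p 2.19e-06) and fell by 2.18 against ASCs (standard error 0.14, adjusted p 3.81e-07). In ASCs against FAPs its log2 fold change was 0.15 (adjusted p 0.400) and had no settled direction, since it was -0.52 with quantile normalization, -0.06 with a common 75th percentile, -0.41 with total reads and -0.10 without FAP replicate 1. Meg3 took 32.7, 34.7 and 33.4% of the summed value of the 10 genes in ASCs, 28.8 and 38.0% in FAPs and 13.8, 14.2 and 12.8% in injured FAPs.

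Dlk1 encodes a transmembrane protein of the Notch ligand family that is shed as preadipocyte factor 1 (ENSMUSG00000040856.17, chromosome 12, 109452823 to 109463336, plus strand). Its values were 121, 133 and 110.5 in ASCs, 821 and 675 in FAPs and 444, 308 and 447 in injured FAPs. The 3 groups did not overlap, with FAPs highest and ASCs lowest. The means were 121 ± 11.0 (SD, n = 3), 748 ± 103 (SD, n = 2) and 399.8 ± 79.2 (SD, n = 3) in this order. Between ASCs and FAPs its log2 fold change was -2.61 (standard error 0.19, adjusted p 1.88e-06), the lowest of the 10 genes in that comparison. After glycerol Dlk1 fell by 0.91 against FAPs (adjusted p 0.00163), and it remained 3.24-fold higher than in ASCs (log2 fold change 1.69, adjusted p 9.64e-06). Meg3 and Dlk1, expressed from opposite parental copies of the same domain, thus differed in the comparison with ASCs, where Meg3 was lower and Dlk1 higher in injured FAPs. The ratio of their values was 123, 89.7 and 122 in ASCs, 12.3 and 21.2 in FAPs and 6.84, 9.71 and 6.26 in injured FAPs.

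The noncoding RNAs that follow Meg3 on the same strand are Rian, which hosts small nucleolar RNAs and starts 32.2 kb after Meg3, and Mirg, which hosts microRNAs and starts 158 kb after it. Rian was at 6134, 5644 and 6119.9 in ASCs, 3384 and 3461 in FAPs and 2432, 2008 and 2361 in injured FAPs. Mirg was at 2503, 1563 and 1793, 542 and 472 and 246, 174 and 185 in the same groups. Both were highest in every ASC library and lowest in every injured library. For Rian the log2 fold change was 0.80 in ASCs against FAPs, -0.60 in injured FAPs against FAPs and -1.40 in injured FAPs against ASCs, and all 3 were called. The first was not called with quantile normalization (0.30) or total reads (0.23). The second fell short of the threshold with total reads (-0.47), edgeR (-0.55) and DESeq2 (-0.57) and without injured replicate 2 (-0.51). For Mirg these values were 1.92, -1.34 and -3.26, also all called. After glycerol Meg3 and Mirg were thus lower than in FAPs, Rian was near the threshold, and they did not move in proportion. Meg3 over Rian was 2.43, 2.11 and 2.198 in ASCs, 2.97 and 4.13 in FAPs and 1.25, 1.49 and 1.19 in injured FAPs. Dio3, a deiodinase gene at the far end of the domain, went the other way after glycerol, with 107 and 132 in FAPs and 388, 339 and 295 in injured FAPs (log2 fold change 1.50). Rtl1, between Meg3 and Rian on the annotation, was close to the filter, at 14.3 and 13.2 in FAPs and 33.7, 27.9 and 28.2 in injured FAPs. It was called higher there (1.07), but not without FAP replicate 1 (adjusted p 0.0593), FAP replicate 2 (0.0838) or injured replicate 1 (0.0732).

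**Figure D2:**
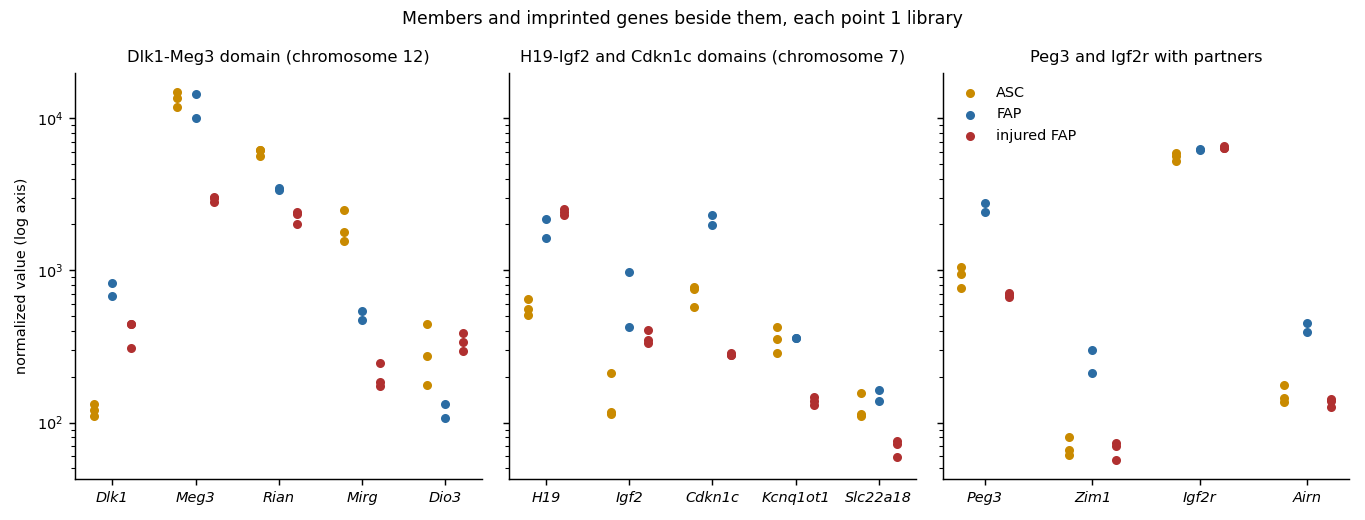
Normalized counts (log axis) of 6 of the 10 genes and of imprinted genes near them, each point 1 library of ASCs, FAPs or injured FAPs. Meg3, Rian and Mirg are lowest in the injured libraries while Dio3 is not, and Cdkn1c, Kcnq1ot1 and Slc22a18 are all lowest in them.

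H19, a long noncoding RNA whose exon hosts miR-675 (ENSMUSG00000000031.16, chromosome 7, 142575529 to 142578143, minus strand), shares enhancers and an imprinting control region with Igf2, which lies 72.6 kb away and encodes a growth factor. Its values were 648, 561 and 507 in ASCs, 2168 and 1639.8 in FAPs and 2308, 2417 and 2519 in injured FAPs. Every FAP and injured library lay above every ASC library. The group means were 572 ± 71.2 (SD, n = 3), 1904 ± 374 (SD, n = 2) and 2415 ± 105 (SD, n = 3). H19 was 3.31-fold lower in ASCs than in FAPs (log2 fold change -1.73, standard error 0.14, adjusted p 4.25e-06). Compared with ASCs, it was 4.24-fold higher in injured FAPs (log2 fold change 2.08, standard error 0.13, adjusted p 3.34e-07). Between injured FAPs and FAPs the log2 fold change of 0.36 (adjusted p 0.0465) stayed under the threshold, although the injured libraries were all above both FAP libraries. It ranged from 0.15 (adjusted p 0.434) without FAP replicate 2 to 0.56 without FAP replicate 1. H19 thus did not share the fall of Meg3.

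Igf2 is not on the list of 10 and is reported because it shares the H19 locus. It was at 212, 114 and 117 in ASCs, 969.9 and 423 in FAPs and 351, 331 and 406 in injured FAPs. The FAP libraries differed from each other by more than the 3 injured libraries did. Its log2 fold change was -2.17 (adjusted p 0.000363) in ASCs against FAPs and 1.35 (adjusted p 0.00291) in injured FAPs against ASCs, both called. The first of these was -1.57 without FAP replicate 1 and -2.77 without FAP replicate 2. After glycerol it was -0.83 against FAPs (adjusted p 0.0551), not called. Of the 20 alternatives, 9 called it, among them quantile normalization (adjusted p 0.0301), a common 75th percentile (0.0303), a fit without ASCs (0.0234), a replicate block (0.0297), edgeR (0.0295) and DESeq2 (0.0126). It also moved with single libraries, to -0.23 (adjusted p 0.577) without FAP replicate 1 and to -1.42 (adjusted p 0.00643) without FAP replicate 2. H19 over Igf2 was 3.06, 4.90 and 4.34 in ASCs, 2.24 and 3.87 in FAPs and 6.58, 7.30 and 6.21 in injured FAPs. In the CD31+CD45+ library it was 0.0222, with 422 for H19 and 19012 for Igf2. On the other side of H19, the ribosomal protein gene Mrpl23, 34.8 kb away, was called in none of the 3 comparisons.

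The microRNAs hosted by H19, Mest and Meg3 are shown because they are the sequences these transcripts are known to release, with the seed (bases 2 to 8) in capitals, from RefSeq GRCm38.p6.
miR-675-5p (H19): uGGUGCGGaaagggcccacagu
miR-675-3p (H19): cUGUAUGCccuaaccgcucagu
miR-335-5p (Mest): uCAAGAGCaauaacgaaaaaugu
miR-335-3p (Mest): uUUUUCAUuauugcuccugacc
miR-770-5p (Meg3): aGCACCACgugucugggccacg
miR-770-3p (Meg3): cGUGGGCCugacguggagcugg
The 6 mature microRNAs have 6 different seeds. The entries of their precursors in the table held 0 reads for Mir675, 2 for Mir335 and 0 for Mir770 over the 9 libraries, and libraries of this kind do not measure mature microRNAs.

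Igf2r encodes the receptor that carries IGF2 to lysosomes for degradation (ENSMUSG00000023830.14, chromosome 17, 12682406 to 12769664, minus strand), and Grb10 an adaptor that restrains signalling of the insulin and IGF1 receptors (ENSMUSG00000020176.17, chromosome 11, 11930508 to 12038683, minus strand). Igf2r was at 5607, 5182 and 5876 in ASCs, 6233 and 6125 in FAPs and 6526, 6326 and 6317 in injured FAPs. It was the steadiest of the 10 genes, with a range over the 8 libraries of 0.33 on the log2 scale. Its log2 fold change was -0.16 between ASCs and FAPs and 0.20 in injured FAPs against ASCs, neither called, and these became -0.74 and 0.64 with quantile normalization and -0.72 and 0.90 with total reads, all called. Between injured FAPs and FAPs it was 0.05 (95% interval -0.16 to 0.25), with the opposite sign under quantile normalization (-0.10) and a common 75th percentile (-0.05).

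Grb10 was at 6836, 5723 and 5924 in ASCs, 4838 and 4149.8 in FAPs and 4748, 4471 and 4513 in injured FAPs. The ASC libraries were the highest, and FAPs and injured FAPs overlapped. No comparison was called. Its log2 fold change was 0.45 in ASCs against FAPs but -0.09 with quantile normalization and -0.11 with total reads, and -0.42 in injured FAPs against ASCs but 0.27 with total reads. Between injured FAPs and FAPs it was 0.03 (95% interval -0.22 to 0.28), and it turned negative with quantile normalization (-0.13), with a common 75th percentile (-0.06) and without FAP replicate 2 (-0.08). For both genes the intervals in that comparison stay within 0.28 of 0, so a change as large as 0.58 lies outside them.

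Airn, a noncoding RNA expressed from the paternal copy, overlaps Igf2r on the opposite strand over 28354 bases. Its values were 178, 136 and 146 in ASCs, 393 and 451 in FAPs and 138, 127 and 143 in injured FAPs, highest in both FAP libraries. Its log2 fold change was -1.46 in ASCs and -1.62 in injured FAPs, each against FAPs, both called, so the pair differed while Igf2r stayed under the threshold. The ratio of Igf2r to Airn was 31.5, 38.1 and 40.4 in ASCs, 15.9 and 13.6 in FAPs and 47.3, 49.8 and 44.1 in injured FAPs. How reads were assigned to a strand is not stated in the sources used here, so the level of Airn is uncertain where the genes overlap.

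Of 15 other genes of IGF and insulin signalling, 13 were tested, and 7 were called in ASCs against FAPs (6 higher, 1 lower, median log2 fold change 0.39). After glycerol 9 were called against FAPs (3 higher, 6 lower, median -0.70), and 12 against ASCs (2 higher, 10 lower, median -0.92). Of all tested genes 47.2%, 52.6% and 50.8% were called in these comparisons, with medians of 0.005, -0.05 and 0.02. With total reads the split was 2 higher and 3 lower, 4 and 5, and 2 and 4. The falls were led by the binding proteins Igfbp5 and Igfbp6, which hold IGFs outside cells. Igfbp5 was at 138738 and 170118 in FAPs and 25492, 29424 and 24271 in injured FAPs (-2.55). Igfbp6 was at 30583 and 26034 and 5687, 4448 and 5237 (-2.47). Igfbp2 and the RNA-binding protein gene Igf2bp2 rose most after glycerol against FAPs, by 2.19 and 1.75. Igfbp2 was near the filter, at 7.61 and 5.64 in FAPs and 29.0, 51.1 and 25.2 in injured FAPs, and passed it through the injured libraries. Between ASCs and FAPs the largest rises were of Igf2bp2 (2.53) and of the insulin receptor substrate Irs2 (1.78), and the only gene lower was Igf2 itself. The ligand Igf1, named after its values were seen, was at 10922, 9796 and 11490.4 in ASCs, 9821 and 8567 in FAPs and 5094, 5978 and 5938 in injured FAPs, and it fell by 0.70 in injured FAPs against FAPs, short of the threshold with total reads (-0.57).

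Plagl1 and Peg3 encode zinc finger proteins of the nucleus. PLAGL1 (ENSMUSG00000019817.18, chromosome 10, 13060504 to 13131694, plus strand) is a transcription factor known to halt the cell cycle and to act on other imprinted genes. Plagl1 was at 9156, 3329 and 6534 in ASCs, 1046 and 983 in FAPs and 1263, 1075 and 1554 in injured FAPs. All ASC libraries were above all others, and relative to their mean they differed among themselves more than for any other of the 10 genes. The means were 6339.5 ± 2918 (SD, n = 3), 1015 ± 44.4 (SD, n = 2) and 1297 ± 241 (SD, n = 3). It was the single gene of the 10 called higher in ASCs than in FAPs, 5.75-fold (log2 fold change 2.52, standard error 0.33, adjusted p 0.000106). Compared with ASCs, injured FAPs were lower, at -2.19 (standard error 0.30, adjusted p 9.11e-05). Injured FAPs and FAPs were not told apart (0.34, 95% interval -0.40 to 1.08), and this interval is wide enough to hold a change past the threshold.

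Peg3 (ENSMUSG00000002265.16, chromosome 7, 6703892 to 6730431, minus strand) was at 943, 1049.9 and 768 in ASCs, 2751 and 2410.3 in FAPs and 687, 709.9 and 667 in injured FAPs. Both FAP libraries were far above all others, and the lowest values were those of the injured libraries. The means were 920.5 ± 142 (SD, n = 3), 2581 ± 241 (SD, n = 2) and 688 ± 21.6 (SD, n = 3). Peg3 fell by 1.90 in injured FAPs against FAPs (standard error 0.14, adjusted p 1.69e-06), and its log2 fold change in ASCs against FAPs was -1.49 (standard error 0.14, adjusted p 8.18e-06). Injured FAPs and ASCs differed by -0.41 (adjusted p 0.0125), which is not called and became 0.29 with total reads. Zim1, an imprinted gene 7.44 kb from Peg3 that is expressed from the maternal copy, was likewise highest in both FAP libraries, at lower values, with 65.9, 80.4 and 61.5 in ASCs, 299 and 213 in FAPs and 69.8, 56.6 and 73.2 in injured FAPs. ASCs and injured FAPs overlapped for Zim1 (-0.06, adjusted p 0.820). Its log2 fold changes were -1.86 and -1.91 in the comparisons with FAPs, both called. Zfp954, the nearest tested gene on the other side at 384.3 kb, did not follow Peg3 (1.72, called, in ASCs against FAPs, and -0.15, not called, in injured FAPs against FAPs).

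Cdkn1c encodes p57, an inhibitor of cyclin-dependent kinases that keeps stem cells quiescent in several tissues (ENSMUSG00000037664.13, chromosome 7, 143458339 to 143461050, minus strand). Its values were 752, 579 and 776 in ASCs, 1970.2 and 2317 in FAPs and 278, 287 and 276 in injured FAPs. The 3 groups did not overlap, and the injured libraries were the lowest and close to each other. The means were 702 ± 108 (SD, n = 3), 2144 ± 245 (SD, n = 2) and 280.2 ± 5.73 (SD, n = 3). Cdkn1c fell by 2.93 on the log2 scale in injured FAPs against FAPs, a 7.60-fold difference (standard error 0.14, adjusted p 2.99e-07) and the largest in size among the 10 genes and 3 comparisons, although with total reads Dlk1 reached -3.17 in ASCs against FAPs. Against ASCs it was 2.48-fold lower in injured FAPs (-1.31, adjusted p 8.77e-06). In ASCs it was 3.07-fold lower than in FAPs (-1.62, adjusted p 7.27e-06). It was the only one of the 10 called in all 3 comparisons besides Dlk1.

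Genes of cell division rose in the same libraries. The summed value of 18 such genes was 3979.7, 5708 and 4420.2 in ASCs, 2770.0 and 3411 in FAPs and 55389.5, 54685 and 56690.3 in injured FAPs. All 18 were called higher after glycerol, with a median of 4.77 against FAPs and of 4.67 against ASCs, beside 24.9% and 25.0% of all tested genes called higher. With all libraries, Birc5 and Top2a rose most against FAPs, by 5.96 and 5.77. These values were 4.79 and 4.84 without FAP replicate 1 and 7.13 and 6.70 without FAP replicate 2. Their first places were not kept without FAP replicate 1, since Cdk1 was at 5.15 or more whichever library was left out. Against ASCs the largest rises were of Aurkb (5.37) and Cdk1 (5.31). Cdkn1c was thus lowest in the libraries where division genes were highest. Between ASCs and FAPs, which differed in Cdkn1c, 2 of the 18 division genes were called, beside 47.2% of all tested genes. They were Pcna, higher in ASCs (1.31), and Bub1b, lower (-0.66). The call of Bub1b was lost without ASC replicate 1 or 2, without FAP replicate 2 and without each injured library, with values from -0.66 to -0.27. It was also lost with quantile normalization (-0.14), without a filter and with only the compared groups in the fit (-0.66 in both).

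Of 6 other CDK inhibitors listed, 5 were tested, and Cdkn2a was below the filter. After glycerol 1 was higher against FAPs, Cdkn2c at 139.8 and 179.7 in FAPs and 799.5, 703 and 786 in injured FAPs (2.26), and 1 was lower, Cdkn1b at 1387 and 1433 and 778, 735 and 837 (-0.85). Compared with ASCs, Cdkn2c (2.60) and Cdkn2d (2.22) were higher and Cdkn1a (-1.01) was lower, the last not called with quantile normalization (-0.54) or total reads (-0.32). Between ASCs and FAPs 3 were called, all lower in ASCs, and Cdkn1b (-0.90) was the only one of the 5 called lower in both comparisons with FAPs. Cdkn2d (-1.92) and Cdkn2b (-1.80) were the lowest, the latter at low values. Cdkn2b was not called without ASC replicate 3 (-1.35) or FAP replicate 1 (-1.29), or with quantile normalization (-1.17). The 3, 2 and 3 of 5 called in ASCs against FAPs, after glycerol against FAPs and against ASCs stand beside 47.2%, 52.6% and 50.8% of all tested genes. The medians of the 5 genes were -0.90 in ASCs against FAPs, -0.49 in injured FAPs against FAPs and 1.26 in injured FAPs against ASCs.

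The neighbours of Cdkn1c on chromosome 7 shared its fall after glycerol. Kcnq1ot1, the noncoding RNA of the domain expressed from the paternal copy, was at 289, 422 and 354 in ASCs, 361 and 358 in FAPs and 148, 130.2 and 139 in injured FAPs (-1.37 against FAPs). Slc22a18, 12.7 kb from Cdkn1c, was at 115, 109.9 and 157, 138 and 165 and 76.1, 59.7 and 72.5 (-1.11). Neither was called between ASCs and FAPs, where Cdkn1c was. Against ASCs the values were -1.33 for Kcnq1ot1 and -0.85 for Slc22a18, both called, the second not with total reads (-0.16). H19 lies 880.2 kb from Cdkn1c on the same strand and had a different order of groups.

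Ndn encodes necdin, a protein of the MAGE family that restrains the proliferation of adipocyte progenitors (ENSMUSG00000033585.5, chromosome 7, 62346569 to 62350262, plus strand). It was at 4537, 4553 and 4394 in ASCs, 3575 and 3345 in FAPs and 2248, 2003 and 2252 in injured FAPs. The 3 groups did not overlap and the spread within each was small. Ndn fell by 0.68 in injured FAPs against FAPs (standard error 0.09, adjusted p 0.000123) and fell by 1.05 against ASCs (standard error 0.08, adjusted p 2.06e-06). With total reads these were -0.55 and -0.36 and no longer past the threshold. In ASCs against FAPs the value of 0.38 was not called and changed sign with quantile normalization (-0.10) and total reads (-0.19). Peg12, 111.6 kb away, was at 44.7 and 28.2 in FAPs and 69.8, 62.8 and 67.1 in injured FAPs and was called higher in injured FAPs than in ASCs (1.32), opposite to Ndn. Its call against FAPs (0.89) was lost without FAP replicate 2 (0.56) and without each of the 3 injured libraries (0.85 to 0.93). It was also lost without a filter (0.89) and with a common 75th percentile (0.79). Ube3a, on the other side at 3035 kb, was called higher in injured FAPs than in FAPs (0.69) but not without FAP replicate 2 (0.48).

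Mest encodes a protein of the alpha/beta hydrolase fold in the endoplasmic reticulum and hosts miR-335 (ENSMUSG00000051855.15, chromosome 6, 30723547 to 30748465, plus strand). It was at 2089, 1236 and 1982 in ASCs, 1473 and 1717 in FAPs and 442, 432 and 497 in injured FAPs. Every injured library was below every other, and ASCs and FAPs overlapped. The means were 1769 ± 465 (SD, n = 3), 1595 ± 173 (SD, n = 2) and 457 ± 35.1 (SD, n = 3). Mest fell by 1.80 against FAPs (standard error 0.20, adjusted p 2.86e-05) and fell by 1.91 against ASCs (standard error 0.18, adjusted p 6.63e-06). In ASCs against FAPs its value of 0.12 (adjusted p 0.641) had no settled direction, being -0.16 with quantile normalization, -0.09 with a common 75th percentile, -0.45 with total reads and -0.02 without ASC replicate 1. Copg2, which overlaps Mest on the opposite strand over 912 bases, was at 389.9 and 418 in FAPs and 395, 384 and 399.7 in injured FAPs and was not called in any comparison. As for Airn, the strand setting is not stated in the sources used here, so the level of Copg2 is uncertain over that overlap. Klf14, 207.6 kb away and expressed from the maternal copy, was highest in FAPs, with 15.8, 17.0 and 15.1 in ASCs, 173 and 157 in FAPs and 29.0, 27.9 and 32.8 in injured FAPs (-3.29 in ASCs and -2.43 in injured FAPs, each against FAPs). Cep41, 29.8 kb away on the other side, was called higher in injured FAPs than in ASCs (1.36), opposite to Mest.

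**Figure D3:**
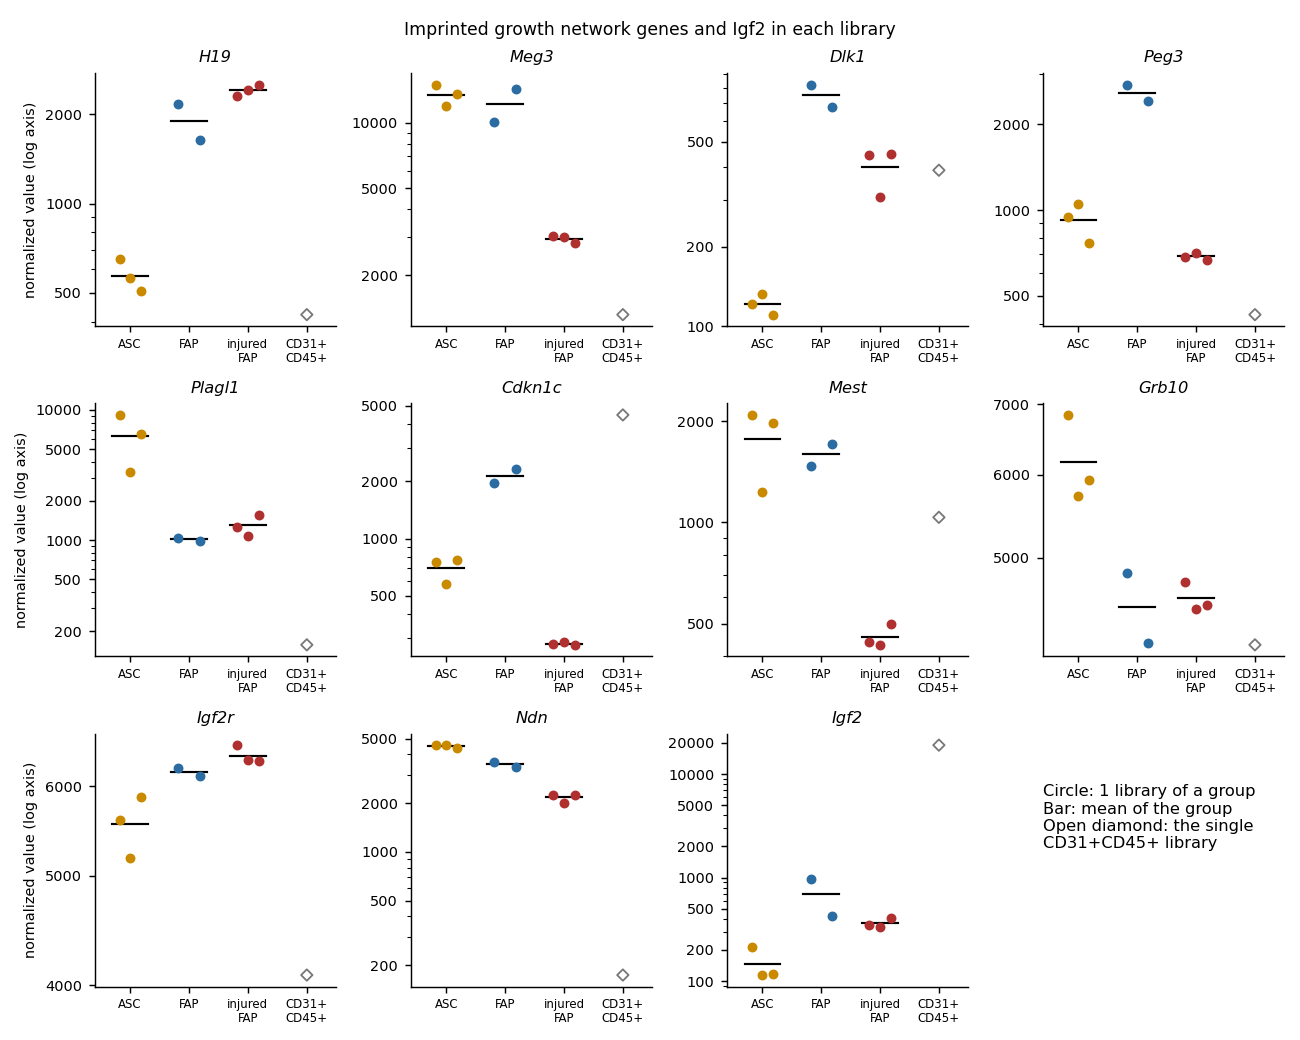
Normalized count (log axis, scaled separately in each panel) of the 10 genes and Igf2 in each library, with the mean of each group as a bar and the CD31+CD45+ library as an open diamond. The injured libraries are lowest of the 8 compared libraries for Meg3, Peg3, Cdkn1c, Mest and Ndn, and highest for H19 and Igf2r.

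The 10 genes thus had several orders of groups. Meg3, Mest and Ndn had ASCs first, FAPs second and injured FAPs last by their means, with ASCs and FAPs not called apart. Cdkn1c and Peg3 had FAPs first, ASCs second and injured FAPs last, with all neighbours in that order called apart for Cdkn1c but not ASCs and injured FAPs for Peg3. Dlk1 had FAPs first, injured FAPs second and ASCs last, all called apart, and Igf2 the same order with FAPs and injured FAPs not called apart. H19 had injured FAPs first and ASCs last, Plagl1 ASCs first and FAPs last, and in both injured FAPs and FAPs were not called apart. Grb10 and Igf2r had no called difference. The range over the 8 libraries went from 0.33 on the log2 scale for Igf2r to 3.22 for Plagl1.

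Per kb of exon in GENCODE M21, a scale that allows levels to be set side by side between genes, the order among the 10 genes also differed between groups. By the means of ASCs, Ndn was the most abundant at 1217 per kb, ahead of Plagl1 at 811 and Meg3 at 741, and Dlk1 was last at 21.5. Plagl1 varied between the ASC libraries (values of 9156, 3329 and 6534). In ASC replicate 2 Plagl1 was below Meg3, Grb10 and Igf2r per kb. By the means of FAPs, Cdkn1c was first at 1051 per kb, then Ndn at 937, H19 at 774 and Meg3 at 674. The single libraries did not share this order. Ndn was slightly above Cdkn1c per kb in FAP replicate 1, and Meg3 was above H19 in FAP replicate 2. In injured FAPs H19 was first at 982 per kb, then Igf2r at 686 and Ndn at 587, while Cdkn1c was at 137. The authors counted on a UCSC annotation, whose exon lengths were not used here. Summed, the values of the 10 genes made up 0.126, 0.111 and 0.117% of all values in ASCs, 0.153 and 0.166% in FAPs, 0.104, 0.102 and 0.106% in injured FAPs and 0.0809% in CD31+CD45+ cells. Their share of the RNA on genes was thus highest in both FAP libraries. The sum of the normalized counts had another order, with 45579, 34228 and 40323 in ASCs, 34934 and 37671 in FAPs and 21981, 21024 and 21839 in injured FAPs.

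Likeness to other genes was measured as the root mean square distance of centred log2 values over the 8 libraries, among 10592 genes with a mean of at least 100. Meg3 and Mest, on different chromosomes, were the closest pair of the 10, at 0.214, and Mest ranked 27th among all genes by nearness to Meg3. Meg3 ranked 37th by nearness to Mest. No other pair of the 10 ranked nearer than 189th. Nearest of all to Meg3 were Ablim1 (0.162) and Gdf10 (0.162), to Mest Ptgs1 (0.142) and Dpyd (0.148), and to Ndn Gulp1 (0.0659) and Kremen1 (0.0765). Cdkn1c was nearest to Vsir (0.145) and Fmnl1 (0.167), and Peg3 to Zfp866 (0.122) and Boc (0.164). The gene nearest to H19 was Ndnf (0.139), and those nearest to Dlk1 were Aopep (0.182) and Kctd1 (0.184). For Plagl1 they were Gramd3 (0.212) and Klhl21 (0.217), for Grb10 Rnf10 (0.0411) and Akt2 (0.0541), and for Igf2r Spg7 (0.0283) and Hadh (0.0397). The small distances of Grb10 and Igf2r go with their narrow range, which many genes share.

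By position, 4 of the 10 genes lie on chromosome 7, 2 on chromosome 12 and 1 each on chromosomes 6, 10, 11 and 17. The nearest tested genes varied. Among those given here, Ddc and Cobl are on the list of other imprinted genes. Beside Plagl1, Sf3b5 (51.3 kb) and Ltv1 (46.4 kb) were called higher in injured FAPs than in FAPs (0.68 and 1.24), where Plagl1 was not called. Sf3b5 was also called against ASCs (0.64), but not without ASC replicate 1 (0.58) or 3 (0.56) or injured replicate 1 (0.57). Beside Grb10, Ddc was never called, and Cobl, 197.9 kb away, fell by 1.61 in injured FAPs against FAPs. Beside Igf2r, Pnldc1 was never called, and 4732491K20Rik, near the filter, was lower in both comparisons with FAPs (-1.27 and -1.38). Both calls of 4732491K20Rik were lost without FAP replicate 1 (-1.04 and -1.15) and with quantile normalization (-0.69 and -0.96). Begain, 384.6 kb from Dlk1, was called in ASCs against FAPs (-0.64), but not without ASC replicate 3 (-0.38) or either FAP library (-0.71 and -0.57). Its call was also lost with the replicate block (-0.48), with quantile normalization (-0.52) and with only the compared groups in the fit (-0.64).

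A wider list of 57 other imprinted genes, Igf2 included, had 56 in the table (Nespas was not) and 41 above the filter. Whether each of them is imprinted in these cells was not measured. Between ASCs and FAPs 18 were called, 8 higher and 10 lower, with a median of 0.12. After glycerol 26 were called against FAPs, 7 higher and 19 lower, with a median of -0.50, and 23 against ASCs, 7 higher and 16 lower, with a median of -0.31. Of all tested genes 47.2%, 52.6% and 50.8% were called in the 3 comparisons in this order. As with the 10 genes, falls outnumbered rises after glycerol, while over all tested genes they were nearly even. With total reads the split against FAPs was 9 higher and 17 lower, and that against ASCs turned to 16 higher and 12 lower. The largest falls against FAPs were of Nap1l5 (-2.69) and Peg13 (-2.46). Nap1l5 was close to the value of 3 reads in injured FAPs, at 5.49, 2.32 and 8.39. Over the alternatives Nap1l5 ranged from -3.02 to -1.77 and Peg13 from -2.71 to -2.33, so their order is not settled. Against ASCs the largest falls were of Gpr1 (-5.38), at 431, 428 and 453 in ASCs and 9.42, 13.2 and 6.86 in injured FAPs, and of Mirg. The largest rises were of Dio3 and Tfpi2 (1.30) against FAPs and of Igf2 and Peg12 against ASCs. Between ASCs and FAPs Tfpi2 (3.70) and Gpr1 (3.11) were highest and Klf14 and Igf2 lowest.

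Of 13 listed factors that maintain or erase imprints, 11 were tested. Against FAPs 3 were higher and 4 lower in injured FAPs (median -0.22), against ASCs 5 higher and 2 lower (median 0.50), and in ASCs against FAPs 1 higher and 5 lower (median -0.36). The share of all tested genes called was 52.6%, 50.8% and 47.2% in the same order. Dnmt1, the maintenance DNA methyltransferase, was at 707, 1066 and 650.3 in ASCs, 879.6 and 896 in FAPs and 5791, 5549.7 and 5057 in injured FAPs (2.62 against FAPs). Its partner Uhrf1 was at 68.5, 217 and 75.3, 47.5 and 65.9 and 3203, 2928 and 2968 (5.73). For both, all 3 injured libraries were far above the other libraries, as they were for the division genes. Tet1, which oxidizes methylcytosine, went the other way, at 65.9, 99.7 and 85.4 in ASCs, 299.5 and 459 in FAPs and 67.5, 74.4 and 86.2 in injured FAPs (-2.16 in ASCs and -2.28 in injured FAPs, each against FAPs). Dnmt3a fell by 0.80 against FAPs, and Tet2 and Tet3 had log2 fold changes of -1.40 and -0.95 against ASCs, the second of which was -0.25 and not called with total reads. Tet2 was higher in ASCs than in FAPs (0.67), a call lost with all 3 other scalings (0.10 to 0.52) and without FAP replicate 1 (0.46). Zfp57 was low in ASCs, at 3.95, 10.2 and 6.28, against 35.2 and 53.6 in FAPs and 51.0, 68.2 and 51.9 in injured FAPs (-2.59 between ASCs and FAPs and 2.96 in injured FAPs against ASCs). DNA methylation was not measured.

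**Figure D4:**
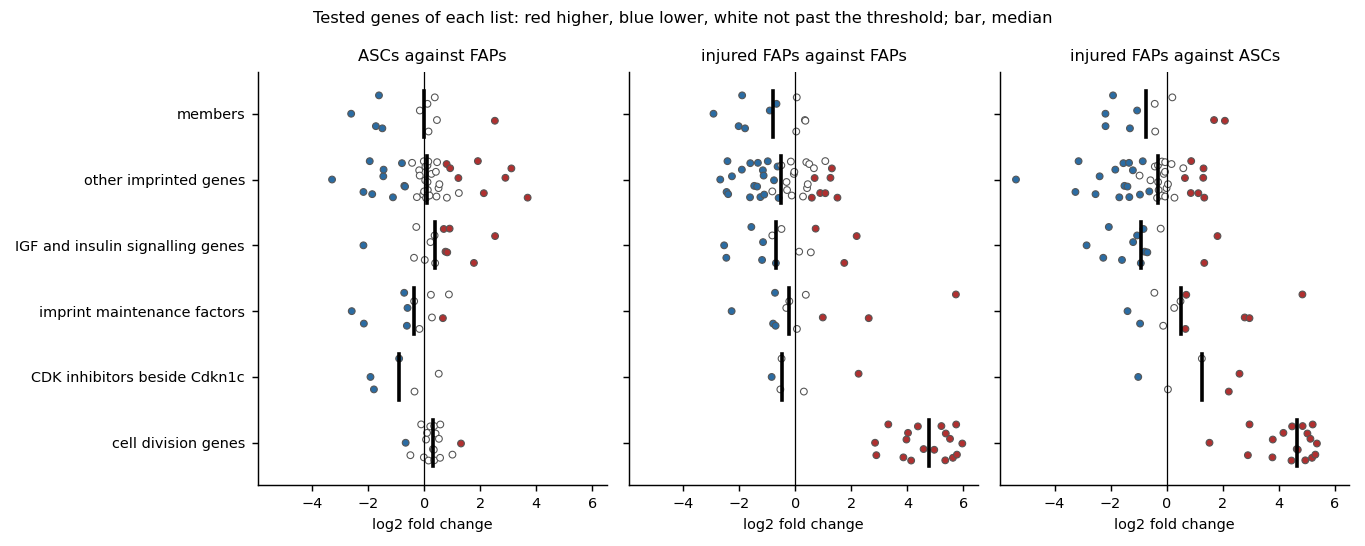
Log2 fold change (horizontal axis) of the tested genes of each list in the 3 comparisons, with called genes in red (higher) or blue (lower), others in white and the median of each list as a bar. After glycerol the medians of the 10 genes, the other imprinted genes and the IGF list lie below 0, though with total reads called rises outnumber falls among the other imprinted genes against ASCs, and all 18 cell division genes lie far above 0.

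Markers of other cell types differed between the groups in which the 10 genes differed, and the lists given here are not all those read. The summed value of 7 smooth muscle and pericyte markers was 1755, 1326 and 1483 in ASCs, 21749 and 19243 in FAPs and 9920.0, 9541 and 9921 in injured FAPs, with none at 0 in any library. The most abundant was Notch3 in ASCs, Rgs5 or Acta2 in FAPs and Cspg4 in injured FAPs. That of 5 tendon cell markers, mostly Fmod, was 2351, 1831 and 1603, 140364 and 174452 and 46599, 47807 and 38378, and Chad was at 0 in ASC replicate 1. That of 7 muscle fibre markers, led by Tnnt3 or Acta1, was 151, 116 and 154, 745 and 905 and 279, 281 and 225, with Myh1 and Tnni2 at 0 in ASC replicate 1 and Myh4 in ASC replicate 3. These 3 sums have FAPs first, injured FAPs second and ASCs last, which is the order of Dlk1 and Igf2. Single markers differed from the sums. The mean of Cspg4 was higher in injured FAPs (4314) than in FAPs (3921). The means of Kcnj8 (85.0 against 163) and Tnnt3 (78.2 against 118) were lower in injured FAPs than in ASCs. The part of these cell types in the values of Dlk1 and Igf2 was not tested. Among 7 markers of muscle stem cells and myoblasts, Vcam1 was the most abundant everywhere, Myog was at 0 in ASCs and FAPs, and Pax7 was at 31.4 and 65.9 in FAPs, 11.8, 10.8 and 5.34 in injured FAPs and 0 in ASCs. The list summed to 2805, 2771 and 2661 in ASCs, 1339.8 and 1355 in FAPs and 4678, 4435 and 4291 in injured FAPs. Adipocyte markers summed to at most 113.

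The CD31+CD45+ library was the highest of the 9 for Cdkn1c and for Igf2. The summed value of 8 endothelial markers was 6555, 5162 and 6949.8 in ASCs, 6068 and 4213 in FAPs, 1776, 1884 and 1508 in injured FAPs and 287487 in the CD31+CD45+ library. The most abundant was Tek in ASCs and FAPs and Cdh5 in injured FAPs and CD31+CD45+ cells. Tek made up most of the sum in ASCs, at 5986, 4841 and 6699.9 against 2120.5 and 1890.0 in FAPs, and the order of ASCs and FAPs in the sum rests on it. The markers did not move together. Cdh5, Kdr and Flt1 had their highest values of the 8 libraries in FAPs, with 1438 and 686 for Cdh5, 1055 and 684 for Kdr and 1259.9 and 953 for Flt1. Vwf, Emcn and Cldn5 were at 0 in both FAP libraries, and Pecam1 in FAP replicate 2 but at 195 in FAP replicate 1. The source of these zeros was not tested, and they are not read here as absence of endothelial RNA. The pericyte markers summed to 81644 in the CD31+CD45+ library. The part of endothelial or pericyte RNA in the values of Cdkn1c and Igf2 was not tested.

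Leukocyte markers, 8 in number, summed to 457, 384 and 372 in ASCs, 265 and 497 in FAPs, 555, 2446 and 457 in injured FAPs and 29149 in CD31+CD45+ cells. Injured replicate 2 stood apart, with Lyz2 the most abundant there at 725, while Cd68 or Csf1r led in the 7 other libraries of ASCs, FAPs and injured FAPs and Cd74 in CD31+CD45+ cells. Ptprc, Adgre1, Lyz2, Csf1r and Cd74 were at 0 in both FAP libraries. Cd68 was at 254 and 477 in these libraries, and Csf1r at 163, 186 and 112 in ASCs. The zeros are therefore not read here as absence of leukocyte RNA. Their source was not tested, and whether other genes of the FAP libraries share it is not known. ASCs and injured FAPs are both compared with these libraries. Without injured replicate 2 the counts of the 10 genes called were 5, 6 and 7 in the 3 comparisons, as with all libraries.

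**Figure D5:**
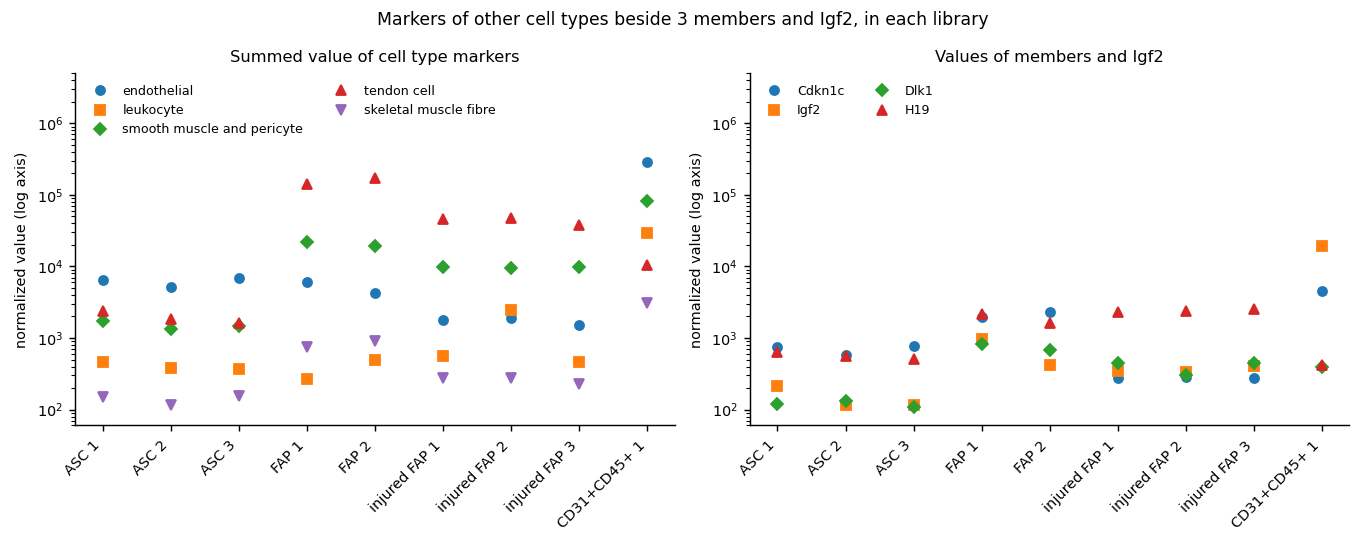
Summed value of cell type markers (left) and normalized count of Cdkn1c, Igf2, Dlk1 and H19 (right) in each of the 9 libraries, both on a log axis. Among the 8 compared libraries, the sums of pericyte and of tendon markers are highest in FAPs, as Dlk1 is. The single pericyte marker Cspg4 is highest in an injured library. Endothelial markers are far highest in the CD31+CD45+ library, and injured replicate 2 is highest of the 8 in leukocyte markers.

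In the CD31+CD45+ library, 1 of the 10 genes was above all other libraries, 7 were below them all and 2 were within their range. Of all tested genes 28.3%, 25.8% and 45.9% were so placed. Cdkn1c was 1.93 times its highest value elsewhere and Igf2 19.6 times. The lowest of the 8 other libraries was 11.5 times the CD31+CD45+ value for Ndn (174, from 111 reads), 6.26 times for Plagl1 (157, from 100 reads) and 2.12 times for Meg3 (1319.9). Per kb of exon Igf2 was first there at 3322 and Cdkn1c second at 2192. H19 (422), Peg3 (430.0), Grb10 (4135) and Igf2r (4084) lay below the lowest of the other libraries by less. Dlk1, at 389, and Mest, at 1036, lay within the range of the other libraries. With a single library, its spread is not known.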

How the data were processed

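RNA of 9 libraries was sequenced as paired reads: ASCs (3), FAPs (2), injured FAPs (3) and CD31+CD45+ cells (1). The authors used fastq_illumina_filter and FastQC on the reads, HISAT2 to align them to mm10, featureCounts to count them on genes of a UCSC annotation, and DESeq2. What the authors deposited is a signal per gene, named as normalized counts. How these were scaled is not stated in the sources used here, nor are the strand setting and the treatment of reads with several matches. In every library 100% of the values were whole reads divided by a size factor, within 1e-06 reads. Besides 2 empty columns the table has 26214 genes, 6684 of them without a read in any of the 9. By symbol, 24870 genes matched GENCODE M21, which gave positions and exon lengths.

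From log2(value + 1), a linear model with limma 3.58.1 (R 4.3.3) gave each of the 3 groups its mean over 8 libraries and let the prior variance follow the mean level. Genes with a mean under 10 were left out, and p-values of the other 13601 were adjusted after Benjamini-Hochberg. The fold threshold of 0.58 is that of the study. The CD31+CD45+ library was left out of the fit because it has no replicate. Reads are not independent molecules, so the value of 3 reads given as a floor covers counting error only.

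Beside the 10 genes, the text names Igf2, from each gene list and comparison the 2 called genes that rose most and the 2 that fell most, the nearest tested gene on each side of each of the 10, and the 1 or 2 genes nearest to each in profile. Rian was added for its place in the domain of Meg3, and Igf1 and the cell type markers by name. The 10 genes and the lists were chosen with earlier results of these data known. Alternatives covered the pseudocount (0.5 and 8), the filter (none, or a mean of 50), quantile normalization, a common 75th percentile, a fit of only the compared groups, the replicate number as a term, unadjusted p, each library left out, and edgeR 4.0.16 and DESeq2 1.42.0 on the recovered reads. Chosen after seeing the data were the scaling to total reads and all alternatives for Igf2, the lists and the other named genes. Limma, edgeR and DESeq2 were tested on simulated data, and no statement here rests on that. Promoter windows and microRNAs came from RefSeq (GRCm38.p6), with a window for 8 of the 10 genes.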

Additional observations from a re-analysis of the deposited data

Results flagged for a closer look

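Both results come from the CD31+CD45+ library, which no comparison uses, and were picked out because the value lay above that of every library of NaCl-injected mice. Cdkn1c was at 4469.7 there, from 2848 reads, against 2317 in the highest NaCl library, FAP replicate 2, a ratio of 1.93. Igf2 was at 19012, from 12114 reads, against 969.9 in the highest NaCl library, FAP replicate 1, a ratio of 19.6. The library also differs from the others in its cells, and with 1 library its own spread is not known and no test was made.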

How the results depend on the processing

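Of 660 values of the 10 genes and Igf2 under 20 alternatives, 626 kept direction and side of the threshold, 13 passed it, 2 no longer did and 19 reversed. The reversed values were all of differences that were not called. In ASCs against FAPs, quantile normalization gave -0.52 for Meg3, -0.16 for Mest, -0.0944 for Grb10 and -0.10 for Ndn. Total reads gave -0.41, -0.45, -0.11 and -0.19 for the same genes, and a common 75th percentile -0.0552 for Meg3 and -0.0936 for Mest. When a library was left out, Meg3 ranged from -0.10 (without FAP replicate 1) to 0.41 and Mest from -0.0230 (without ASC replicate 1) to 0.36. In injured FAPs against FAPs, Grb10 and Igf2r were -0.13 and -0.10 with quantile normalization and -0.0649 and -0.0468 with a common 75th percentile, and Grb10 ranged from -0.0805 (without FAP replicate 2) to 0.14 when a library was left out. In injured FAPs against ASCs, total reads gave 0.29 for Peg3 and 0.27 for Grb10. The scaling itself moves all genes, and why single genes moved more was not tested.

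The values that passed the threshold were of Igf2r (quantile normalization and total reads) and of Igf2 in injured FAPs against FAPs, called under 9 of 20. These were quantile normalization (-0.96), a common 75th percentile (-0.92), only the compared groups and unadjusted p (-0.83 in both), the replicate block (-0.80), edgeR (-0.90), DESeq2 (-0.92), and without ASC replicate 1 or FAP replicate 2. Its adjusted p ranged from 0.00643 to 0.577 over the alternatives. The 2 values that no longer passed were of Ndn with total reads.

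Counts of called genes ranged from 5341 to 7910 in ASCs against FAPs, 6112 to 7941 in injured FAPs against FAPs and 5877 to 9069 in injured FAPs against ASCs, and counts of the 10 genes from 5 to 6, 5 to 6 and 7 to 8. Without any single library the latter were 5, 6 and 7. With total reads 1594 genes were higher and 6316 lower in ASCs against FAPs, and 7377 higher and 1692 lower in injured FAPs against ASCs. A common 75th percentile gave 2452 higher and 4142 lower in the first. Of 300 counts of the gene lists, 289 stayed within 1.5 times the reported count. Cell division genes called in ASCs against FAPs were 1 without a filter, 6 with quantile normalization and 1 with only the compared groups, and 1 to 5 when a library was left out, beside 2 reported. IGF genes called were 4 with a common 75th percentile in ASCs against FAPs, beside 7, and 6 with total reads in injured FAPs against ASCs, beside 12. Of 1967 called values of other named genes under the alternatives, 1895 kept direction and side, 72 fell short of the threshold and none reversed.

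The replicate numbers of the labels do not state a pairing. Deviations from the group means of same-numbered libraries correlated across genes between -0.054 and 0.045, and with the replicate block as a term 6287, 7046 and 6861 genes were called, and 5, 6 and 7 of the 10 genes. With that term Igf2 was called in injured FAPs against FAPs (adjusted p 0.0297), which it was not without it.

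FAPs of NaCl-injected mice have 2 libraries. Where 1 of them is left out, the other is assumed to vary like the other groups. Depth limits genes near the filter, such as Rtl1, Zfp57 and Cdkn2b, and not the 10 genes, the lowest of which was at 110.5.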
